A study of Homo sapiens with 15 samples.

Results

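Transcripts of 49 genes of DNA replication and the S phase of the cell cycle were examined in 12Z cells, an immortalized line of human endometriotic epithelial cells. The members were chosen by name for their roles, with earlier results of these data known. They were matched to the gene identifiers of the deposited counts through GENCODE symbols, and are 49 of 60617 identifiers in the files. All 49 passed the filter on low counts, among 23184 genes tested. RNA was sequenced in 15 libraries, 3 in each of 5 groups. These were siRSAD2 with PIK3CA H1047R and insulin, siRSAD2 with H1047R and vehicle, siRSAD2 with empty vector and insulin, siRSAD2 with empty vector and vehicle, and empty vector and vehicle with a non-targeting siRNA. Each culture received a pool of siRNAs, then 24 h later a pBabe plasmid by transient transfection. On the next day the cells were placed in serum-free medium, and 4 h afterwards they were given 100 nM insulin or a vehicle of saline and albumin for 24 h. Viperin, the product of RSAD2, is an enzyme that interferons induce against viruses, and H1047R is an activating substitution in the catalytic subunit of phosphatidylinositol 3-kinase. All insulin and H1047R comparisons were made in cells that also carried siRSAD2.

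Before a cell copies its genome, the origin recognition complex, CDC6 and CDT1 load the MCM2 to MCM7 helicase onto DNA, which is called licensing. Cyclin-dependent kinases then help CDC45 and the GINS complex switch the helicase on, after which primase and the polymerases synthesise DNA behind a sliding clamp, PCNA. Many of these genes are transcribed as cells enter S phase under the E2F transcription factors, and their transcripts are abundant in dividing epithelial cells. In bulk RNA, fewer cells in S phase and less transcript in each cell cannot be told apart.

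Gene counts totalled 16.1 to 39.7 M per library, and the members took 0.722% to 0.776% of them. RSAD2 stood at 0.691, 0.0768 and 0.208 CPM (gene counts per M of the library total after TMM scaling) in siRSAD2 empty-vector vehicle libraries, against 3.003, 3.16 and 3.69 CPM in non-targeting libraries, and no siRSAD2 library reached the non-targeting range. PIK3CA was higher in every H1047R library, at 160.4 to 223 CPM, than in every library with empty vector, at 76.4 to 109 CPM. Of the epithelial markers, KRT8, KRT18 and KRT19 were at 414 to 1151 CPM, but EPCAM (at most 0.610 CPM) and CDH1 (at most 1.00 CPM) were close to absent in all libraries. The 8 epithelial markers summed to 1909 to 2048 CPM with siRSAD2 (empty vector, vehicle) and 2363 to 2397 CPM with the non-targeting siRNA, with 4 of 8 lower. The 8 stromal markers summed to 5400 to 5501 CPM with siRSAD2 and 5373 to 5672 CPM with the non-targeting siRNA, with 3 higher and 5 lower. Sums were 11.04 to 12.2 CPM with siRSAD2 and 7.33 to 9.28 CPM with the non-targeting siRNA for 5 endothelial markers (1 higher, 0 lower), and 4.91 to 12.4 and 4.61 to 6.26 CPM for 5 of 6 immune markers (1 higher, 0 lower). The higher immune marker was PTPRC, at 1.35, 0.884 and 9.03 CPM with siRSAD2 and 0.715, 1.19 and 1.59 CPM with the non-targeting siRNA, so that 1 library, siRSAD2 empty-vector vehicle replicate 3, stood above the rest and the groups overlapped. CD3E, the remaining immune marker, was at 0 in all but 1 library, and the part of these markers in the results below was not tested. In siRSAD2 empty-vector vehicle replicate 3, 8.31% of reads were unmapped and pseudogenes took 0.444% of counts, against 3.97% to 5.45% and 0.325% to 0.355% in the other libraries. siRSAD2 empty-vector insulin replicate 2 differed more from the other replicates of its group (chi-square per degree of freedom 11.4 and 12.3) than any other pair of replicates (3.06 to 6.17).

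The members covered a wide range of levels. Exon length was the union of all annotated exons of a gene, 1.40 kb for PCNA and 9.15 kb for RRM2, and ranks per kb depend on it. Without division by length, MCM7 was highest in non-targeting libraries at 547 CPM, ahead of RRM2 (528), MCM4 (518) and PCNA (500). Per kilobase of exon, PCNA was the most abundant member in non-targeting libraries at 356 ± 9.06 CPM per kb (SD, n = 3). TK1, thymidine kinase, followed at 180.0 ± 4.49 CPM per kb, and RRM1, MCM7, TYMS and MCM3 lay between 109 and 112 CPM per kb. MCM7 (110.2 ± 1.32), TYMS (109 ± 3.27) and MCM3 (109 ± 1.36) did not differ by more than the sum of their SDs, while RRM1 (112 ± 1.49) and MCM3 did. The lowest were CCNE1 at 3.01 ± 0.107, POLA2 at 0.723 ± 0.0490 and E2F2 at 0.513 ± 0.0594 CPM per kb. The smallest count of any member in any library was 34, for E2F2, and the next smallest were 112 for POLA2 and 153 for CCNE1. Across all 15 libraries the highest level of a member was between 1.09 times (RRM2) and 1.76 times (E2F2) its lowest, so that no member varied as much as 2 times. RRM2 ranged from 497 to 541 CPM and RFC5 from 50.2 to 83.6 CPM over the 15 libraries.

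Sequences around the start sites of 6 members are shown because the results turn on these genes and they differ in the short motifs they carry. Each window runs from 250 bases before to 50 bases after the start given by RefSeq (GRCh38.p14), in the direction of the gene. RFC5 (ENSG00000111445.14, chr12:118016453-118016752, plus strand) and CCNA2 (ENSG00000145386.10, chr4:121823834-121824133, minus strand) had the smallest p with siRSAD2. LIG1 (ENSG00000105486.14, chr19:48170295-48170594, minus strand) and CDT1 (ENSG00000167513.9, chr16:88803539-88803838, plus strand) were also lower. CCNE1 (ENSG00000105173.14, chr19:29811741-29812040, plus strand) was higher with siRSAD2, and GINS1 (ENSG00000101003.10, chr20:25407423-25407722, plus strand) was higher with insulin. Capitals mark an E2F motif (TTTCCCGC, TTTCGCGC, TTTGCCGC or TTTGGCGC) or a CCAAT box (CCAAT) on either strand. TTTGAA, one form of the cell cycle homology region of late cell cycle promoters, was searched too and is not in these 6 windows. Other forms were not searched, and the window of CCNA2 holds CTTGAA.
RFC5: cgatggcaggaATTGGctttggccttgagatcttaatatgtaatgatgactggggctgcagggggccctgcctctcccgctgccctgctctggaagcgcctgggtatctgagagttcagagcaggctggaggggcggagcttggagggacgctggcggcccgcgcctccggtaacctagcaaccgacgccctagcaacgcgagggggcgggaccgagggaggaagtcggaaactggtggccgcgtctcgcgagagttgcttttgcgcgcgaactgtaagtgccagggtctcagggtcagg
CCNA2: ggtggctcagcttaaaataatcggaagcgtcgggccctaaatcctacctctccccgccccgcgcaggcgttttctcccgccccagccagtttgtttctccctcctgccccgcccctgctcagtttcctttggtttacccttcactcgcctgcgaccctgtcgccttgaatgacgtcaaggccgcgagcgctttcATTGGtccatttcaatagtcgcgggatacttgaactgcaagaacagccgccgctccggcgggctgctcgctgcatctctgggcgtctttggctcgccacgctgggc
LIG1: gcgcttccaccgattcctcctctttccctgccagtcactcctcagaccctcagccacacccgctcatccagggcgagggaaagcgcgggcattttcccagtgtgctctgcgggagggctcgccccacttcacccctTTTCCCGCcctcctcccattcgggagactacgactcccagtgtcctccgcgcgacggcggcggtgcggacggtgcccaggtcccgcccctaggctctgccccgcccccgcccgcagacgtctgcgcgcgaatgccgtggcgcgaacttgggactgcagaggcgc
CDT1: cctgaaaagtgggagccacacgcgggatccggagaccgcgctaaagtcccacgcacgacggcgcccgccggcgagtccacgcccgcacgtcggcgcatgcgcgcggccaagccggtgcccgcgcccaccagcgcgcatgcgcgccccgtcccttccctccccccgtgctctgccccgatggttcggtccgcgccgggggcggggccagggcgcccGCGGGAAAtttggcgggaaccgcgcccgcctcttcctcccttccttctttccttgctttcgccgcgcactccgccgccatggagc
CCNE1: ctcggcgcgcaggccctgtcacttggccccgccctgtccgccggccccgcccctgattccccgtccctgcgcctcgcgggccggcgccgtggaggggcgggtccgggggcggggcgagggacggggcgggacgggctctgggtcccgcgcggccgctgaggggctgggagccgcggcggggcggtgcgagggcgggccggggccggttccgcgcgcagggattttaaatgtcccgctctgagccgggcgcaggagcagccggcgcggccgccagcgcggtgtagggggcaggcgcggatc
GINS1: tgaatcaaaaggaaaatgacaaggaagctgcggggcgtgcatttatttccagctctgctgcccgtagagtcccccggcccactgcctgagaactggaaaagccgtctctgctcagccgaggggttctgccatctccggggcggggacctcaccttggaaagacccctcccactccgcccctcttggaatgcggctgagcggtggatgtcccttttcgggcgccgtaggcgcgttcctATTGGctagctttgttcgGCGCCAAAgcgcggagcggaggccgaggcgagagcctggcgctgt

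The E2F motif begins 114 bases before the start of LIG1 and, on the opposite strand, 35 bases before that of CDT1 and 5 bases after that of GINS1. A CCAAT box on the opposite strand begins 239 bases before the start of RFC5, 56 before that of CCNA2 and 13 before that of GINS1. RefSeq windows were found for 42 members (57 windows, as some genes have several starts) and not used for CCNE2, GINS4, MCM4, MCM5, POLD3, RPA2 and RPA3. An E2F motif was present in 40.4% of the 57 member windows and in 3.31% of all 35116 windows of the table. CCAAT was present in 52.6% and 34.6%, and TTTGAA in 3.51% and 15.2%. Matches of different motifs shared bases in 1 member window and in 47 of all windows. Of members with a window, 11 of 17 that were lower with siRSAD2 carried the E2F motif, and so did 10 of 23 that did not pass. Of the 2 that were higher, TYMS carried it and CCNE1 did not. A match of letters describes the window and is not a measured binding site.

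The comparison of siRSAD2 with non-targeting siRNA, both with empty vector and vehicle, asked which transcripts differ with the siRNA pool against RSAD2. Viperin protein was not measured in these libraries, and effects of the pool on other targets were not tested. The non-targeting libraries are numbered 4 to 6 and the siRSAD2 libraries 1 to 3, so the siRNA and any difference between these sets cannot be told apart. Of the 49 members 19 were lower and 2 higher, while 28 did not pass (edgeR quasi-likelihood test, Benjamini-Hochberg adjusted p below 0.05). The background over all genes tested was 9.72% lower and 9.82% higher, against 38.8% and 4.08% of members. Among genes with a mean of at least 5 CPM, a level every member but E2F2 reached, 19.4% were lower and 13.7% higher. The median log2 fold change was -0.10 over members and 0.02 over all genes, and 40 of 49 members were below 0. At an unadjusted p below 0.05 there were 25 members, where the background was 30.7%. The 3 libraries of each group did not overlap for 26 members that were below and 5 that were above, where the background was 17.1% and 16.1%. Members that were lower had a median of 29.8 CPM per kb in non-targeting libraries, and members that did not pass had 18.6. Without division by length these medians were 136 and 84.3 CPM.

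**Figure D1:**
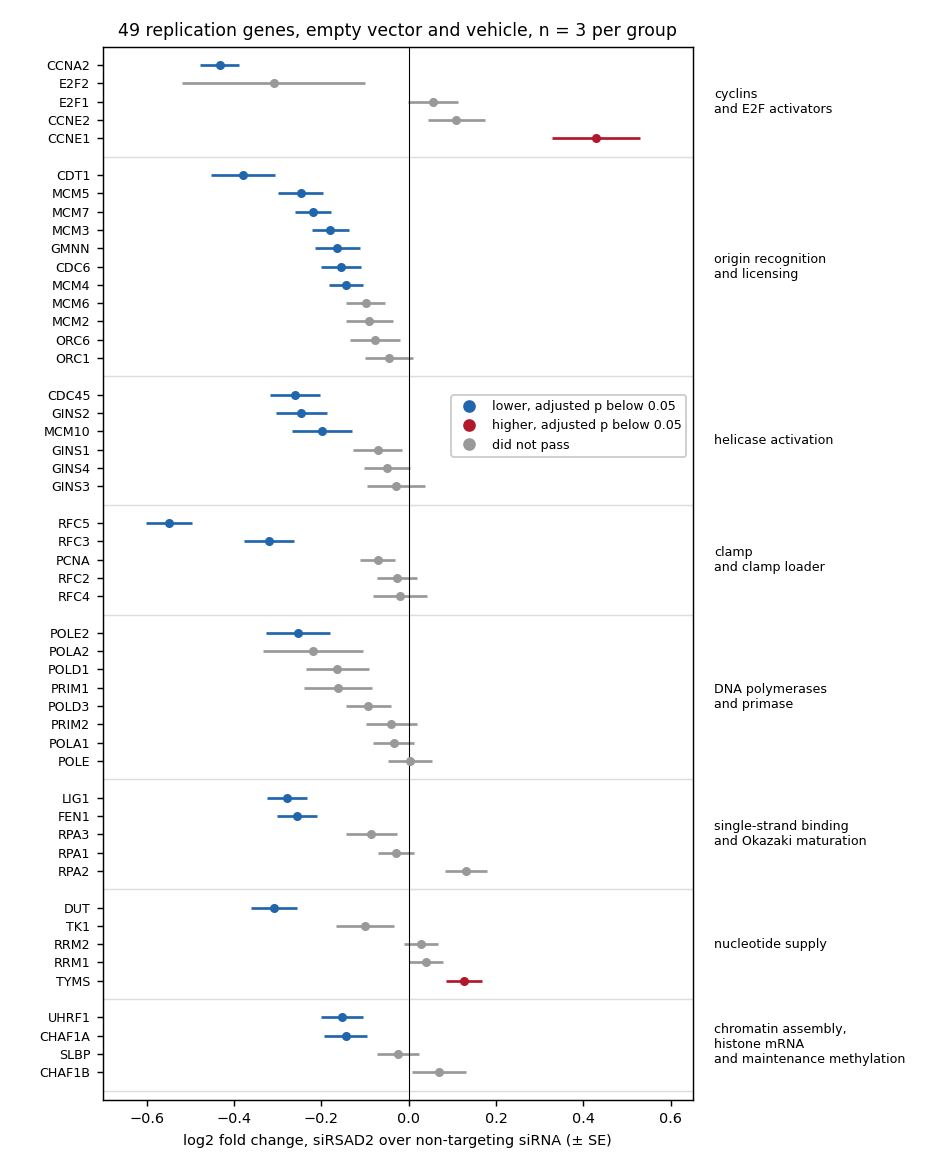
Log2 fold change of each of the 49 members, siRSAD2 over non-targeting siRNA, on the horizontal axis, genes grouped by role on the vertical axis. Bars are the SE derived from the edgeR test, and n = 3 libraries per group. Of the members, 19 lie below 0 past the threshold (blue), 2 above it (red) and 28 did not pass (grey), with RFC5 lowest at -0.55 and CCNE1 highest at 0.43.

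The cyclins and E2F activators diverged. CCNA2, cyclin A2, which partners CDK2 in S phase and CDK1 later, was at 179, 183 and 177 CPM in siRSAD2 libraries, against 235, 249 and 244 CPM in non-targeting libraries. The groups were far from overlapping, and the log2 fold change was -0.43 ± 0.04 (SE, edgeR adjusted p = 1.44e-08), a fall of 25.9%. CCNE1, cyclin E1, which drives CDK2 at entry into S phase, went the other way, at 9.68, 9.84 and 10.4 CPM in siRSAD2 libraries and 7.69, 7.37 and 7.17 CPM in non-targeting libraries. Every siRSAD2 library was above every non-targeting library, with a log2 fold change of 0.43 ± 0.10 (edgeR adjusted p = 0.00230), at low counts. CCNE2, the other cyclin E, had a log2 fold change of 0.11 ± 0.07 (adjusted p = 0.274) and E2F1 of 0.06 ± 0.06, and neither passed. E2F2, at 1.72 to 3.02 CPM over all libraries, gave -0.31 ± 0.21 (adjusted p = 0.343), the widest error of any member.

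Of 11 licensing genes 7 were lower and 0 higher (median -0.15), and MCM2, MCM6, ORC1 and ORC6 did not pass. CDT1, the loading factor that is destroyed once replication starts, was at 35.8, 39.96 and 37.5 CPM in siRSAD2 libraries and 50.8, 46.0 and 50.4 CPM in non-targeting libraries. The groups did not overlap, and the log2 fold change of CDT1 was -0.38 ± 0.07 (edgeR adjusted p = 0.000248). MCM5, a helicase subunit, was at 212, 216 and 226 CPM in siRSAD2 libraries and at 265, 261 and 249.6 CPM in non-targeting libraries, with a log2 fold change of -0.25 ± 0.05 (adjusted p = 0.000669). The helicase subunits were not lowered evenly. MCM7 was at -0.22 ± 0.04, MCM3 at -0.18 ± 0.04 and MCM4 at -0.14 ± 0.04, all past the threshold, while MCM6 (-0.10 ± 0.05) and MCM2 (-0.09 ± 0.05) did not pass. Whether the subunits differ from each other was not tested. GMNN, geminin, which inhibits CDT1, and CDC6 were lower at -0.16 ± 0.05 and -0.15 ± 0.05. ORC1, the largest subunit of the origin recognition complex, had the smallest difference of the group, with 55.7, 52.2 and 53.4 CPM in siRSAD2 libraries and 55.9, 53.5 and 57.1 CPM in non-targeting libraries, ranges that overlap.

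Helicase activation genes were lower in 3 of 6 cases. CDC45, part of the active helicase, was at 52.6, 57.3 and 58.6 CPM in siRSAD2 libraries and at 63.7, 68.1 and 70.2 CPM in non-targeting libraries. All siRSAD2 libraries were below, and the log2 fold change was -0.26 ± 0.06 (edgeR adjusted p = 0.00116). GINS2 (-0.25 ± 0.06) and MCM10 (-0.20 ± 0.07, adjusted p = 0.0387) were lower as well. The other GINS subunits lay nearer 0, at -0.07 for GINS1, -0.05 for GINS4 and -0.03 for GINS3. GINS3 had 27.6, 27.01 and 26.8 CPM in siRSAD2 libraries and 27.4, 28.0 and 27.6 CPM in non-targeting libraries, which overlapped.

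The clamp loader held the member that fell most. RFC5, a small subunit of replication factor C, the ATPase that opens the PCNA ring, was at 54.8, 53.8 and 59.3 CPM in siRSAD2 libraries and at 83.6, 80.3 and 81.7 CPM in non-targeting libraries. The ranges were separated by more than 20 CPM, and RFC5 changed by -0.55 ± 0.05 on the log2 scale (edgeR adjusted p = 3.55e-09), or -31.7%. RFC3, another small subunit, was at -0.32 ± 0.06 (adjusted p = 9.28e-05). RFC2 (-0.03 ± 0.05) and RFC4 (-0.02 ± 0.06) did not pass. RFC4 was at 65.6, 68.2 and 67.3 CPM in siRSAD2 libraries and at 65.5, 68.6 and 69.9 CPM in non-targeting libraries, and its ranges overlapped. PCNA itself, the clamp, gave -0.07 ± 0.04, with a 95% interval of -0.15 to 0.01.

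Of 8 polymerase and primase genes only POLE2, the second subunit of polymerase epsilon, passed. It was at 27.9, 28.0 and 27.5 CPM in siRSAD2 libraries and at 31.8, 36.2 and 31.3 CPM in non-targeting libraries, without overlap, and its log2 fold change was -0.25 ± 0.07 (edgeR adjusted p = 0.0136). POLE, the catalytic subunit of the same enzyme, had 172, 174 and 169 CPM in siRSAD2 libraries and 177, 169 and 169 CPM in non-targeting libraries. The ranges overlapped, with an estimate of 0.00 ± 0.05 and a 95% interval of -0.10 to 0.11. POLA2 (-0.22 ± 0.11), POLD1 (-0.16 ± 0.07) and the primase subunit PRIM1 (-0.16 ± 0.08) were below in every library without passing, at adjusted p of 0.194, 0.119 and 0.160. POLD3, PRIM2 and POLA1 lay between -0.09 and -0.03.

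Both enzymes that finish Okazaki fragments were lower. LIG1, DNA ligase I, which seals the nicks, was at 114, 114 and 108 CPM in siRSAD2 libraries and at 137, 135 and 136 CPM in non-targeting libraries. Its log2 fold change was -0.28 ± 0.05 (edgeR adjusted p = 3.99e-05), with no overlap. FEN1, the flap endonuclease, was lower by a similar amount, at -0.26 ± 0.05 (adjusted p = 0.00011). Replication protein A, which coats single-stranded DNA, was not lowered past the threshold in any subunit. RPA2 was at 109.6, 113 and 109.6 CPM in siRSAD2 libraries and at 98.6, 104 and 100.5 CPM in non-targeting libraries. All 3 siRSAD2 libraries were above, but at 0.13 ± 0.05 the difference fell just short (adjusted p = 0.0510). RPA1 gave -0.03 ± 0.04 and RPA3 -0.09 ± 0.06.

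Among genes of nucleotide supply, DUT, the dUTPase that keeps uracil out of DNA, was lower and TYMS, thymidylate synthase, which makes dTMP, was higher. DUT was at 133, 149.8 and 146 CPM in siRSAD2 libraries and at 174, 182 and 175 CPM in non-targeting libraries. It gave -0.31 ± 0.05 on the log2 scale (edgeR adjusted p = 5.64e-05), without overlap. TYMS was at 283, 292 and 292 CPM in siRSAD2 libraries and at 258, 263 and 274 CPM in non-targeting libraries. The groups did not overlap, yet the difference was small, at 0.13 ± 0.04 (adjusted p = 0.0275). Of the ribonucleotide reductase subunits, RRM2 and RRM1 did not pass, with 95% intervals of -0.05 to 0.11 for RRM2 and -0.04 to 0.12 for RRM1. TK1 gave -0.10 ± 0.07 and did not pass.

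Of 4 genes of chromatin assembly, histone mRNA and maintenance methylation, UHRF1 and CHAF1A were lower. UHRF1, which guides maintenance DNA methylation, was at 126, 130.3 and 118 CPM in siRSAD2 libraries and at 145, 139 and 133 CPM in non-targeting libraries. These ranges came close without touching, and the log2 fold change was -0.15 ± 0.05 (edgeR adjusted p = 0.0224). CHAF1A, the large subunit of chromatin assembly factor 1, was at -0.14 ± 0.05 (adjusted p = 0.0345). CHAF1B, its partner subunit, was at 53.4, 53.9 and 48.8 CPM in siRSAD2 libraries and at 49.1, 50.8 and 48.8 CPM in non-targeting libraries. It overlapped, at 0.07 ± 0.06. SLBP, which binds the stem-loop of histone mRNAs, gave -0.02 ± 0.05.

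**Figure D2:**
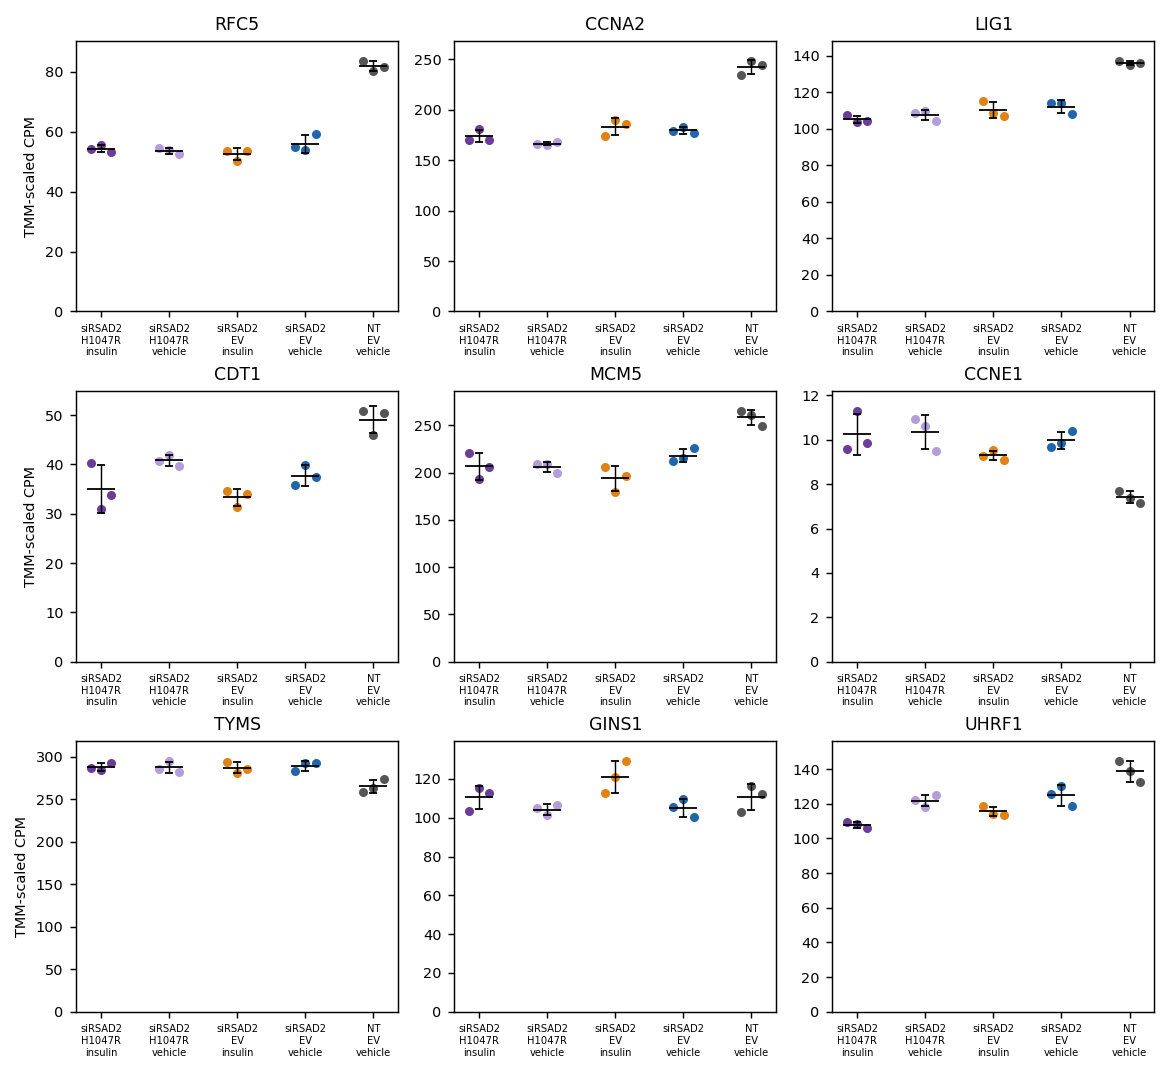
TMM-scaled CPM (vertical axes, from 0) of 9 members in the 5 groups (horizontal axes; EV, empty vector; NT, non-targeting siRNA). Points are libraries and the bars give the mean and SD of 3. RFC5, CCNA2, LIG1, CDT1 and MCM5 are lower, and CCNE1 and TYMS higher, in all 4 siRSAD2 groups than in the NT group, while GINS1 is highest in siRSAD2 EV insulin and UHRF1 lowest in siRSAD2 H1047R insulin.

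The calls of RFC5, CCNA2, LIG1, DUT, RFC3, FEN1, MCM7, CDT1 and MCM5 were kept under all 16 alternatives tried for this comparison. CCNE1, CDC45, MCM3 and GINS2 lost theirs only at a threshold of 0.001. Leaving out each of the 6 libraries in turn gave 16 members without non-targeting replicates 4 or 5, 18 without replicate 6, and 16, 17 and 19 without siRSAD2 replicates 1, 2 and 3. MCM4 lost its call without siRSAD2 replicate 2, POLE2 without non-targeting replicate 5, and CDC6 without siRSAD2 replicate 1 or non-targeting replicate 4. TYMS kept its call in 3 of 6 cases, GMNN and UHRF1 in 2, and CHAF1A (kept without non-targeting replicate 5) and MCM10 (kept without siRSAD2 replicate 3) in 1. Without siRSAD2 empty-vector vehicle replicate 3 and empty-vector insulin replicate 2, the count was 19 lower and 1 higher, and TYMS (adjusted p = 0.0516), CHAF1A (0.0813) and UHRF1 (0.0914) no longer passed.

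Other genes of the cell cycle were read for comparison in the same fit, from lists chosen by role with earlier results of these data known. Of 48 other replication factors 13 were lower and 2 higher (median -0.04). Those with the smallest p were WDHD1, a replisome scaffold (-0.33), TOP2A, a topoisomerase that peaks after S phase (-0.24), and RRM2B, a ribonucleotide reductase subunit induced by p53, which was higher at 0.30. In the E2F and RB network 3 of 18 were lower and 3 higher (median 0.00), and MYBL2, E2F8 and LIN9 had the smallest p, at -0.35, -0.40 and -0.32. Of 7 inhibitors of cyclin-dependent kinases 3 were higher and 3 lower (median -0.21). CDKN1A, p21, was at 422, 452 and 419 CPM in siRSAD2 libraries and at 186, 198 and 184 CPM in non-targeting libraries, a log2 fold change of 1.19, CDKN2B was at 0.25 and CDKN1B, p27, at -0.39. Mitosis genes were lower in 25 of 27 cases, with 0 higher and a median of -0.35, beside -0.10 for the replication members. ANLN, KIF20A and CCNB1, which act in cytokinesis and mitotic entry, were at -0.41, -0.38 and -0.38. The difference between the lists was not tested.

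The remaining siRSAD2 groups also differ from the non-targeting group in insulin or H1047R, so they are set beside it only as levels, and all share the same 3 non-targeting libraries. The median log2 ratio of the members to the non-targeting mean was -0.10 with H1047R and insulin, -0.08 with H1047R and vehicle, -0.13 with empty vector and insulin, and -0.10 with empty vector and vehicle. In all 12 siRSAD2 libraries 16 members were below every non-targeting library and 2, CCNE1 and TYMS, above every one, where the background over all genes was 7.91% and 6.23%. The 16 were CCNA2, CDC6, CDT1, MCM3, MCM4, MCM5, MCM7, CDC45, GINS2, RFC3, RFC5, FEN1, LIG1, DUT, CHAF1A and UHRF1. RFC5 stayed between 50.2 and 59.3 CPM in the 12 siRSAD2 libraries.

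**Figure D3:**
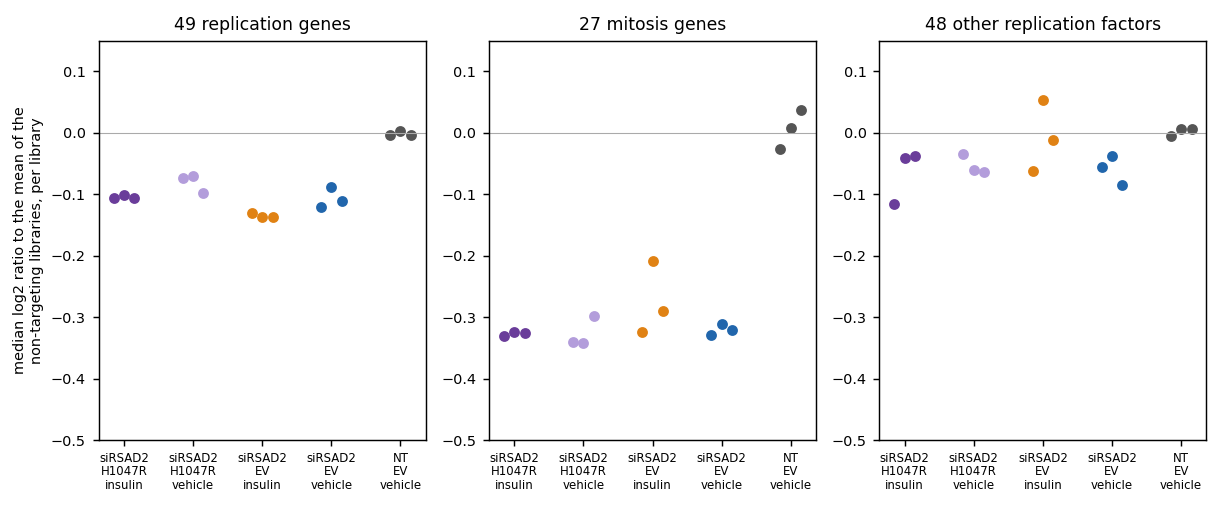
Median log2 ratio of each library to the mean of the non-targeting libraries (vertical axes) for the 49 members, 27 mitosis genes and 48 other replication factors, in the 5 groups (horizontal axes; EV, empty vector; NT, non-targeting siRNA); each point is a library. The members lie between -0.14 and -0.07 in every siRSAD2 library, and the mitosis genes between -0.34 and -0.21.

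Insulin was compared with vehicle to ask how the transcripts respond in cells that carry siRSAD2. With empty vector, 1 of 49 members was higher and 1 lower (edgeR adjusted p below 0.05), or 2.04% each way, where the background was 2.10% and 4.19%. Calls of 1 member each way do not set the members apart from all genes. GINS1, a GINS subunit, was at 113, 121 and 129 CPM in insulin libraries and at 105, 109.7 and 100.5 CPM in vehicle libraries. The groups did not overlap, and the log2 fold change was 0.20 ± 0.06 (adjusted p = 0.0301). MCM5 was at 206, 179 and 196 CPM in insulin libraries and at 212, 216 and 226 CPM in vehicle libraries, a log2 fold change of -0.17 ± 0.05 (adjusted p = 0.0472). These ranges were separate too. GINS1 lost its call without vehicle replicates 1 or 3 or insulin replicate 3, and MCM5 lost it without any of these libraries except insulin replicate 1. Without both libraries that stand apart, MCM5 was at -0.09 (adjusted p = 0.431) and GINS1 at 0.16 (0.153), and 2 members were called, both lower. DESeq2 called 1 higher and 3 lower. At an unadjusted p below 0.05 there were 15 members, where the background was 19.2%, and the groups did not overlap for 6 members above and 11 below, where it was 9.28% and 9.6%. The median over members was -0.04, and every estimate but that of GINS3 (-0.20 ± 0.07) was within 0.20 log2 units of 0. Stromal markers summed to 4518 to 5122 CPM with insulin and 5400 to 5501 CPM with vehicle, with 3 of 8 lower and 0 higher, and their part was not tested.

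With H1047R, 0 of 49 members passed the threshold of edgeR, where the background was 0.483% higher and 1.99% lower, and DESeq2 called 1. An unadjusted p below 0.05 was found for 6 members, where the background was 10.8%, and the groups did not overlap for 2 members above and 9 below, where it was 8.83% and 10.5%. UHRF1 came nearest, at 109, 108 and 106 CPM in insulin libraries and 122, 118 and 125 CPM in vehicle libraries. These ranges did not overlap, and the estimate was -0.17 ± 0.05 (adjusted p = 0.0529). CDT1 had -0.22 ± 0.08 and SLBP -0.13 ± 0.05, with adjusted p of 0.139 and 0.217. The estimates of the members ran from -0.23 to 0.10, with a median of -0.02. Stromal markers summed to 4783 to 5274 CPM with insulin and 5205 to 5363 CPM with vehicle, with 4 of 8 lower and 0 higher.

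Averaged over both vectors, which reuses the same 12 libraries, insulin left 3 members lower (6.12%) and 1 higher (2.04%), where the background was 5.22% and 3.15%. Among genes with a mean of at least 5 CPM, 10.4% were lower and 5.75% higher. Calls in these numbers do not set the members apart from all genes. At an unadjusted p below 0.05 there were 16 members, where it was 19.5%. UHRF1 was at -0.14 ± 0.03 (edgeR adjusted p = 0.00693), CDT1 at -0.20 ± 0.05 (0.0141) and CHAF1A at -0.13 ± 0.04 (0.0148), while GINS1 was at 0.14 ± 0.04 (0.0218). UHRF1 with empty vector was at 119, 114 and 114 CPM in insulin libraries and at 126, 130.3 and 118 CPM in vehicle libraries, which overlap. CDT1 with empty vector was at 34.6, 31.4 and 33.9 CPM in insulin libraries and at 35.8, 39.96 and 37.5 CPM in vehicle libraries, without overlap. With H1047R it was at 40.3, 31.0 and 33.7 CPM in insulin libraries and at 40.7, 42.0 and 39.7 CPM in vehicle libraries, where 1 insulin library reached the vehicle range. UHRF1 and CHAF1A kept these calls when any single library was left out. CDT1 lost its call without H1047R insulin replicate 2 or 3, and GINS1 kept it in 6 of 12 cases. Without both libraries that stand apart, 6 members were lower and 1 higher.

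Among the lists read for comparison, insulin with empty vector raised 3 of 48 other replication factors, RRM2B (0.39), ASF1A, a histone chaperone (0.26), and HELLS, a chromatin remodeller (0.34), and lowered 0. With H1047R only RRM2B passed, at 0.21. CDKN1A was higher with insulin by 0.51 with empty vector and by 0.43 with H1047R, and CDKN2B was at -0.43 and -0.44, while CDKN2A was lower with empty vector at -0.27. CDKN1A was at 687, 562 and 599 CPM in siRSAD2 empty-vector insulin libraries, against 422, 452 and 419 CPM in vehicle libraries. Mitosis genes were higher with insulin in 3 of 27 cases with empty vector (CCNB1 at 0.21, CENPE at 0.29 and BUB1 at 0.16). CENPE was at 229, 288 and 230 CPM in these insulin libraries and at 221, 186 and 206 CPM in vehicle libraries. The highest value came from insulin replicate 2, which stands apart. With H1047R 0 of 27 were higher, and 3 had an unadjusted p below 0.05 in edgeR.

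H1047R was compared with empty vector under each treatment, again with siRSAD2 in every culture. With vehicle, RPA3 was the 1 member past the threshold, higher, where the background was 0.621% higher and 0.742% lower. RPA3, the smallest subunit of replication protein A, was at 97.1, 89.5 and 83.5 CPM in H1047R libraries and at 74.7, 76.5 and 78.5 CPM in empty-vector libraries. All H1047R libraries were above, with a log2 fold change of 0.23 ± 0.06 (edgeR adjusted p = 0.0380). The call was kept only without H1047R replicate 3 when each of the 6 libraries was left out in turn. With vehicle 2 members had an unadjusted p below 0.05, where the background was 12.5%, and the groups did not overlap for 3 members above and 5 below, where it was 10% and 8.99%. With insulin 0 of 49 passed in edgeR and 0 in DESeq2, where the background was 0.22% higher and 0.0647% lower. An unadjusted p below 0.05 was found for 8 members, where the background was 10.5%, and the groups did not overlap for 4 above and 4 below, where it was 6.99% and 5.79%. POLA2, the accessory subunit of polymerase alpha, came nearest, at 8.43, 8.60 and 8.996 CPM in H1047R libraries and 7.44, 5.45 and 6.67 CPM in empty-vector libraries. The groups did not overlap, and the estimate was 0.42 ± 0.12 (adjusted p = 0.154).

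Averaged over both treatments, RPA3 (0.19 ± 0.04, edgeR adjusted p = 0.0117) and POLA2 (0.31 ± 0.08, 0.0420) were higher with H1047R and 0 members were lower, where the background was 1.47% and 1.25%. At an unadjusted p below 0.05 there were 9 members, where it was 14.9%. RPA3 lost this call without H1047R vehicle replicate 1 or H1047R insulin replicate 3, and POLA2 kept it in 2 of 12 cases. The share of forward-strand reads was above 6% in all 6 H1047R libraries and in siRSAD2 empty-vector insulin replicate 3, and below it in the other 8. With vehicle no H1047R library shared a class with an empty-vector library, so that H1047R and this share cannot be told apart. With a term for it, RPA3 was at 0.04 (adjusted p = 0.992) with vehicle and at 0.03 in the average. That term rests on 1 library, siRSAD2 empty-vector insulin replicate 3, the single library of high share without H1047R, where RPA3 was at 92.2 CPM beside 82.1 and 79.2 CPM in the other replicates of its group. Without both libraries that stand apart, POLA2 was at 0.22 in the average (adjusted p = 0.252). Of the 48 other replication factors 1 was lower and 0 higher with H1047R and vehicle. In the same comparison PRC1 (1.00) and PLK1 (-0.20), which act in cytokinesis and mitotic progression, passed among 27 mitosis genes. With insulin 0 genes passed in edgeR in any of these lists, where an unadjusted p below 0.05 was found for 10 of 48 other replication factors, 3 of 18 genes of the E2F and RB network, 1 of 7 kinase inhibitors and 4 of 27 mitosis genes.

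**Figure D4:**
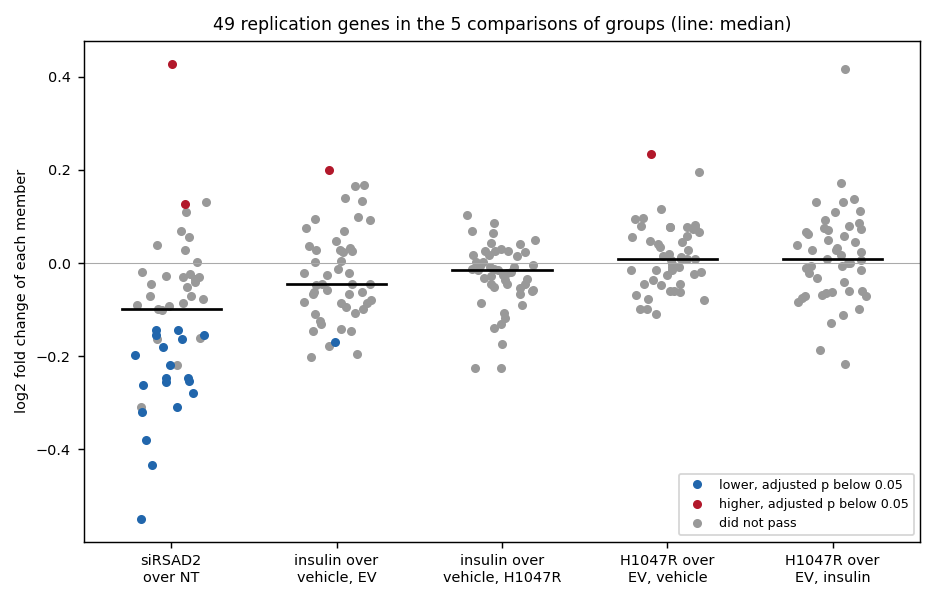
Log2 fold change of each of the 49 members (vertical axis) in the 5 comparisons of groups (horizontal axis; EV, empty vector; NT, non-targeting siRNA); each point is a gene, coloured by its call, and lines are medians. The median is -0.10 for siRSAD2 over NT, -0.04 and -0.02 for insulin and 0.01 for both H1047R comparisons.

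The interaction asked whether the response to insulin differed between H1047R and empty vector. In edgeR 0 of 49 members passed and in DESeq2 0, as over all genes tested, where 0 of 23184 passed in edgeR. At an unadjusted p below 0.05 there were 2 members, against 6.95% of all genes. These were MCM5 at 0.17 ± 0.07 and TK1 at 0.20 ± 0.10, with adjusted p of 0.7005 and 0.714. The 95% interval of the interaction was within 0.50 log2 units of 0 for 47 members.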

How the data were processed

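RNA sequencing libraries of 12Z cells (15, in 5 groups of 3 taken from the labels; the methods state independent experiments) were processed by the authors with cutadapt, Trim Galore and FastQC and aligned to hg38 with STAR, whose raw gene counts they deposited. Versions are not given in the sources used here, and the annotation release named in the methods is numbered as a mouse release. STAR counts uniquely mapped reads. The reverse-stranded counts were used, as in the study. The 4 summary entries per library (22.2% to 30.5% of reads) were left out. Of 60617 identifiers 60357 matched GENCODE 44, which gave symbols.

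The 23184 genes averaging 1 count or more entered 1 fit of all libraries. It used edgeR 4.0.16 under R 4.3.3, TMM scaling, group means, the quasi-likelihood test and Benjamini-Hochberg adjustment at 0.05. SE was derived as the absolute log2 fold change divided by the square root of the F statistic of the test, and intervals from that SE. SE, intervals (95%) and p values rest on the spread between replicates, with 3 libraries a group. That spread was pooled over all groups in the fit and moderated across genes, so it is not that of the compared groups alone. Members and lists were chosen with earlier results of these data known. Values per library are given for the 4 members with the smallest p past the threshold in each comparison of 2 groups, for the extremes of each role group with siRSAD2 and, chosen after their values were seen, for UHRF1, CDT1, POLA2 and CDKN1A with insulin or H1047R; of each other list the 3 genes with the smallest p were named, except 1 result that is not reported here. Alternatives were DESeq2 1.42.0, RLE factors, other filters, a threshold of 0.001, unstranded counts, only the compared groups, a replicate block and each library left out. A term for forward-strand share, fits within 1 class of it and the removal of 2 doubted libraries were chosen after seeing the data. The fit was tested on simulated data.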

Additional observations from a re-analysis of the deposited data

How the results depend on the processing

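No called log2 fold change of a member changed sign under any alternative. Genes of the other lists, such as CDKN1A and the mitosis genes, were not followed under the alternatives. When a library was left out, the median over members ran from -0.01 to 0.01 for H1047R with vehicle and from -0.01 to 0.03 for the interaction, so neither median has a stable sign. With siRSAD2 against non-targeting siRNA the count of members called (21) was 19 to 22 under the other tools, filters, strand setting and samples in the fit, 16 with libraries of low forward-strand share only, 16 to 19 when a library was left out, and 9 at a threshold of 0.001. At that threshold the count was 0 for insulin with empty vector, for H1047R with vehicle and for both averages. DESeq2 called 4 members for insulin with empty vector, 1 for insulin with H1047R and 8 for insulin averaged. filterByExpr gave 1 for insulin with H1047R, no filter 1 for H1047R with insulin, and unstranded counts 0 for H1047R with vehicle. With only the compared groups in the fit the counts were 0 for insulin with empty vector, 2 for insulin with H1047R and 1 for H1047R averaged. Leaving out a library gave 0 to 5 for insulin with empty vector, 0 to 1 for insulin with H1047R, 2 to 7 for insulin averaged, 0 to 1 for H1047R with vehicle and 0 to 3 for H1047R averaged.

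Among the settings chosen after seeing the data, a term for forward-strand share gave 0 for insulin with empty vector, 1 for insulin with H1047R, and 0 for H1047R with vehicle and averaged. Without both libraries that stand apart the counts were 2 for insulin with H1047R, 7 for insulin averaged and 1 for H1047R averaged. Within libraries of low forward-strand share insulin with empty vector gave 0, and within those of high share insulin with H1047R gave 2. The cause of these changes was not tested. The share of all genes called was not set beside the counts under alternatives, so they do not compare members with all genes.

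Whether replicate numbers pair the samples was not settled. Residuals correlated above 0.1 in 2 of 18 pairs with the same number and 11 of 36 with different numbers. These 2 were empty-vector insulin with H1047R insulin at replicate 1 (0.306) and replicate 2 (0.258). They were the highest of all pairs, and the highest with different numbers was 0.256. With the replicate number as a block, the counts were 0 for H1047R with vehicle and 1 for H1047R averaged, and other counts stayed within 1.5 times. The non-targeting libraries are numbered 4 to 6 and all siRSAD2 libraries 1 to 3. A block therefore cannot separate the siRNA from any difference between these sets of libraries.

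As limits, the text rests on 3 libraries a group, and E2F2, POLA2 and CCNE1 had the fewest reads. Named pseudogenes number 8 for DUT, 3 each for PCNA, RPA2 and RRM2, 2 each for RPA3 and TYMS, and 1 each for RFC3, RFC5, FEN1 and ORC1, and reads shared with such copies are not counted. On the same strand, the span of FEN1 overlaps that of FADS2, that of PRIM1 NACA and that of CHAF1B MORC3. Spans of PCNA, RFC3, POLA1, POLA2, PRIM2, POLD1, POLD3 and UHRF1 also overlap other entries there, and that of MCM7 holds 3 microRNA genes. Ambiguous reads, 3.05% to 3.77% of a library, are not counted. Their part in the low counts of POLA2 was not tested.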
